A study of Mus musculus with 6 samples.

Results

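The genes described here make fatty acids and cholesterol, or control the enzymes that do. They are 28 genes, 12 of fatty acid synthesis and 16 of sterol synthesis and sensing, and were measured in whole pancreas of young mice on Affymetrix 3' expression arrays. All probe sets whose single gene symbol in the array annotation was one of the 28 were taken, with no filter on level. This gave 67 probe sets, 30 for the fatty acid genes and 37 for the sterol genes, of 45037 probe sets tested, and every one of the 28 genes had at least 1.

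The comparison addresses the effect of raised Prox1, which encodes a transcription factor of the homeobox type, in beta cells after birth. Pancreas was taken from NMRI mice at postnatal day 15. The Prox1-OE group, 3 arrays, had the genotype Jojo-Prox1 with Ngn3-cre, and the control group, 3 arrays, had Ngn3-cre alone, so both groups carried the Cre transgene. Ngn3 is a factor of endocrine progenitors, so recombination with this driver is not limited to beta cells. Each value averages islet cells, a small share of the organ, with acinar, ductal, vascular, immune and fat cells, and a difference in bulk tissue cannot tell fewer cells of a type from less RNA per cell.

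Fatty acid synthesis starts from citrate, which ATP citrate lyase (Acly) splits to acetyl-CoA. Acetyl-CoA carboxylase (Acaca) and fatty acid synthase (Fasn) build palmitate with NADPH, part of which comes from malic enzyme (Me1), and elongases (Elovl5, Elovl6) and desaturases (Scd1, Scd2, Fads1, Fads2) modify the chain. Cholesterol is made from acetyl-CoA through mevalonate, isoprenoids, squalene and lanosterol. The transcription factors SREBP-1 (Srebf1) and SREBP-2 (Srebf2) drive these genes: Scap escorts them from the endoplasmic reticulum when sterols are scarce, and Insig1 and Insig2 hold Scap back when sterols are plentiful. In pancreas, as in other secretory tissue, these lipids go into membranes, and lipogenic enzymes are abundant in the fat that surrounds the organ.

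SREBPs bind sterol elements in promoters together with NF-Y, which binds CCAAT, and Sp1, which binds GC boxes. Promoter windows, from 250 bases before to 50 bases after a gene's start (RefSeq, GRCm38.p6), were at hand for 22 of the 28 genes, and 5 of them are shown because their genes set the patterns described below: 4 sterol genes that varied together over the arrays, and Thrsp, a fatty acid gene with 1 of 3 probe sets low on the arrays where those were high. Capitals mark CCAAT, the sterol element TCACNCCAC and the E-box CACGTG, each on either strand. They lie at chr13:119690101-119690400 (+ strand) for Hmgcs1, chr13:8885356-8885655 (+) for Idi1, chr5:4104648-4104947 (- strand) for Cyp51, chr5:28071162-28071461 (+) for Insig1 and chr7:97417501-97417800 (-) for Thrsp, and are printed 5′ to 3′ on the gene's strand.
Hmgcs1: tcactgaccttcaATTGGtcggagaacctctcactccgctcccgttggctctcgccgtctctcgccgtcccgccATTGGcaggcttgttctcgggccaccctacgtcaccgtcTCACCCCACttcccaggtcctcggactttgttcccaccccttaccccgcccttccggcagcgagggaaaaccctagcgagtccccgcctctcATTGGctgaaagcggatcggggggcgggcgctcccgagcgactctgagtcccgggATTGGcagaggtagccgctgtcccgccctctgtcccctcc
Idi1: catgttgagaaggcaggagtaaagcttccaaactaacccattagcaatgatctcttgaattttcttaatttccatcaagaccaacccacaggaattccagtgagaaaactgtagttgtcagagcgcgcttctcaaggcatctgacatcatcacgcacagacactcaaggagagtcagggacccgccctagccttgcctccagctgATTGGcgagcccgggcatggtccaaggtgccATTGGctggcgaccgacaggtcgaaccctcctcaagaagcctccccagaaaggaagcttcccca
Cyp51: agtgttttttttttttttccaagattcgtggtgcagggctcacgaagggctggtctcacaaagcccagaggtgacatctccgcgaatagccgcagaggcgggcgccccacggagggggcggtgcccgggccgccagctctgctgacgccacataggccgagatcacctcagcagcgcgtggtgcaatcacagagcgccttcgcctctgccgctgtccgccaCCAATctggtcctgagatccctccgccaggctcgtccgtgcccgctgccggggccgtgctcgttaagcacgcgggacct
Insig1: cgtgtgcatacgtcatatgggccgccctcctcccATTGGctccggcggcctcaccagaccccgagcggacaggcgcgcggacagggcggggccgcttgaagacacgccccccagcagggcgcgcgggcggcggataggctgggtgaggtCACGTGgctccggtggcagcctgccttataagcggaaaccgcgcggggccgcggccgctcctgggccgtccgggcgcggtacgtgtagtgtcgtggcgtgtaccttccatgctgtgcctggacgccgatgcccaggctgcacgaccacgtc
Thrsp: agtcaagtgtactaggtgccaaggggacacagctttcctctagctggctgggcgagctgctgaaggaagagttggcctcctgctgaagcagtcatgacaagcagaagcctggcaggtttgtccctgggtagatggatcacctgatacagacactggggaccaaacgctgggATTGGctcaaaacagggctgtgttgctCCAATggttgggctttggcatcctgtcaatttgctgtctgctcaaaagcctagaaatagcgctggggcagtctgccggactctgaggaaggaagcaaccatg

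CCAAT was present in a window of 12 of the 13 sterol genes with one, all but Scap, and in 6 of the 9 fatty acid genes. Among all 14452 genes on the array with a window, 42.0% had it. The GC box GGGCGG was in 13 of 13 sterol genes and 4 of 9 fatty acid genes, against 57.3% of all. The E-box was in 4 of 13 sterol genes (Insig1, Dhcr7, Sc5d and Scap) and 1 of 9 fatty acid genes (Elovl5), against 10.2%. TCACNCCAC was found in Hmgcs1 alone, against 1.46% of all genes, and the shorter form CACCCCAC, found in 3.76%, matched the same place there and no other member. These are matches of letters in a short window, not measured sites, and some genes had several windows, any of which counted.

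The array medians ran from 4.37 to 4.42 on the log2 scale, and the highest value was 14.9. Acinar markers, 9 of the 12 listed, lay at or above percentile 96.8 of all probe sets. For Prox1 itself, the difference on the brightest of its 3 probe sets was 0.06 ± 0.19 (SE; limma adjusted p = 0.974), from a control mean of 5.14 ± 0.41 (SD, n = 3) and a Prox1-OE mean of 5.20 ± 0.19. The sources used here do not say whether these probes match the transgene's transcript, and so Prox1 does not check the labels. The mean level of 7 B cell and plasma cell genes was 5.75 on Prox1-OE replicate 1, beside 4.21 to 4.70 on the other arrays. Ms4a1, Ighm, Cd79b and Jchain were highest on that array, at 7.80, 8.85, 5.15 and 6.24, and Blk slightly so, at 3.94. Cd79a read 4.07 there and Pax5 4.20, beside 4.19 and 4.44 on control replicate 3. All differences are Prox1-OE minus control on the log2 scale, with SE and p from limma and p adjusted over the 45037 probe sets.

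None of the 67 probe sets passed an adjusted p of 0.05 by limma (lowest adjusted p = 0.772), in a comparison that called 5 probe sets of all (0.0111%). At an unadjusted p under 0.05 there were 3 of 67, against 6.15% of all probe sets: a probe set of Me1 higher, and one each of Fads2 and Lss lower. The names of these Fads2 and Lss probe sets end in _x_at and _s_at. When all probe sets with such names were left out, 1 of 57 member probe sets had an unadjusted limma p under 0.05, against 6.13% of all. All 3 Prox1-OE arrays lay above all 3 controls for 2 of the 67 (4.60% of all probe sets) and below them for 4 (6.80% of all). These shares were near those of the whole array. The count at an unadjusted p under 0.05 was 14 of 67 without Prox1-OE replicate 3, where it was 6.56% of all probe sets, and 2 to 5 without any other single array. It was 10 of 67 without both replicate 3 arrays, a setting chosen after the data were seen, beside 6.33% of all probe sets. Differences were small on both sides, with 3 of the 67 beyond 0.5 and a range from -0.56 (Fads1) to 0.77 (Scd1).

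Signs leaned to lower values in both gene groups. Of the 30 fatty acid probe sets 20 were negative (median -0.07), and of the 37 sterol probe sets 27 were (median -0.08). Over all probe sets 54.9% were negative and the median was -0.02. When each gene was represented by its brightest probe set, the one with the highest mean over the 6 arrays, 8 of 12 fatty acid genes and 14 of 16 sterol genes were negative, with medians of -0.07 and -0.11, beside 53.8% and -0.01 over 18193 genes. Over the probe sets, the sterol median was 0.01 without control replicate 3 and the fatty acid median 0.0023 without Prox1-OE replicate 1, so each lean was lost when that 1 array was left out. In the other direction, the sterol median was -0.20 without Prox1-OE replicate 3 and -0.17 without control replicate 1. Without both replicate 3 arrays, a setting chosen after the data were seen, the sterol median was -0.07 and the fatty acid median -0.13.

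**Figure D1:**
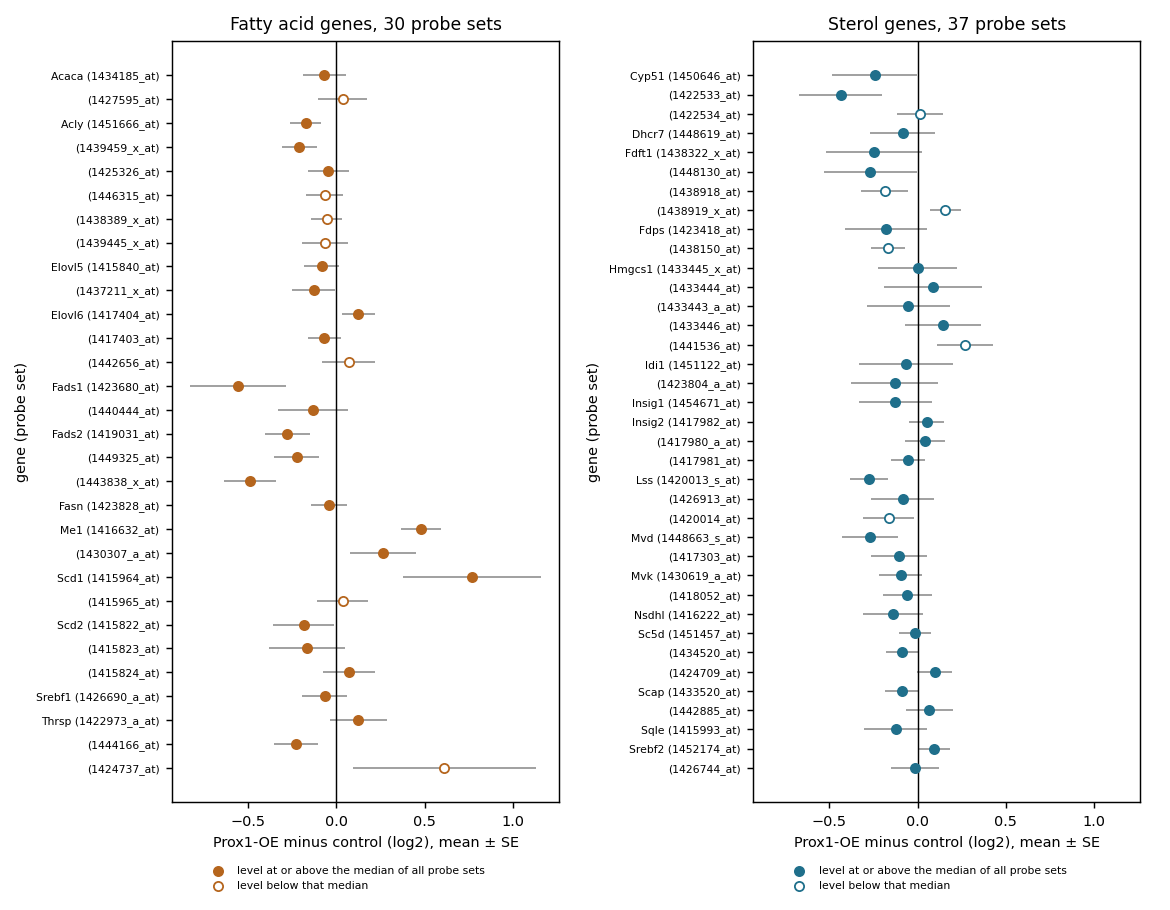
Difference of each of the 67 member probe sets (x axis, Prox1-OE minus control, log2; points, means of 3 against 3 arrays; lines, ± SE), by gene on the y axis, with the probe sets of a gene from the highest level to the lowest. Open points have a level below the median of all probe sets; most points lie within 0.3 of 0, and Scd1, Thrsp and Me1 at the right and Fads1, Fads2 and Cyp51 at the left reach farthest.

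The sign of a gene's difference often varied with the probe set. Of the 22 genes with more than 1, 11 had probe sets of both signs and 11 of 1 sign. The same share over all genes was not counted. Mixed signs were seen in bright probe sets too: 13 of the 67 had a level below the median of all probe sets, and of the 19 genes with at least 2 probe sets above it, 8 still had both signs (Elovl6, Hmgcs1, Insig2, Sc5d, Scap, Scd2, Srebf2 and Thrsp). Some of these differences were smaller than their SE, such as those of Insig2 (0.05 ± 0.10, 0.04 ± 0.11 and -0.06 ± 0.10). The widest span was that of Thrsp, from -0.23 to 0.61, followed by Scd1, from 0.04 to 0.77. Me1, Scd1, Acly, Fads1, Fads2, Elovl5, Lss, Idi1, Fdps, Mvd and Mvk each had 1 sign over all their probe sets.

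Among the fatty acid genes, Me1, which makes cytosolic NADPH, had the lowest p. Its brightest probe set read 6.60, 6.63 and 6.33 on Prox1-OE replicates 1, 2 and 3 and 6.08, 6.13 and 5.92 on the controls. Every Prox1-OE array was above every control, with a difference of 0.48 ± 0.11 (95% interval 0.22 to 0.74, limma adjusted p = 0.772), which is 1.39-fold. The second probe set read 6.11, 6.32 and 5.68 against 5.97, 5.90 and 5.45 and differed by 0.26 ± 0.19, with overlapping groups. On each of these probe sets, replicate 3 was the lowest array of its group. The related mitochondrial enzymes Me2 and Me3 had differences of -0.21 ± 0.10 and -0.26 ± 0.13 (limma adjusted p = 0.812 and 0.813).

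Scd1, a stearoyl-CoA desaturase that makes oleate and is a marker of active lipogenesis, had the largest difference of the 67 and one of the largest spreads. Its bright probe set read 7.97, 8.41 and 6.94 in Prox1-OE and 7.31, 7.42 and 6.28 in control. In each group replicate 3 was more than 1 unit below the mean of the other 2 arrays (-1.24 and -1.09), and Prox1-OE replicate 3 lay below 2 of the controls. The difference was 0.77 ± 0.39 (95% interval -0.12 to 1.66, limma adjusted p = 0.813), and it ran from 0.41 without control replicate 3 to 1.18 without Prox1-OE replicate 3. The other Scd1 probe set had a level below the median of all probe sets and a difference of 0.04 ± 0.15.

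Thrsp, a nuclear protein of lipogenic tissues, varied like Scd1 on 1 of its 3 probe sets, the dimmest, whose level was below the median of all probe sets. It read 4.89, 5.37 and 3.51 in Prox1-OE and 4.17, 4.75 and 3.01 in control, with the lowest array of each group again replicate 3, and differed by 0.61 ± 0.52 (limma adjusted p = 0.870). The brightest differed by 0.13 ± 0.16 and the other by -0.23 ± 0.12. Adipoq, the adipocyte hormone adiponectin, had the same low arrays: 5.62, 5.87 and 3.57 in Prox1-OE and 4.55, 4.53 and 3.36 in control (0.87 ± 0.57, limma adjusted p = 0.837). Ordered by level, the Prox1-OE replicates 2 and 1 came first and control replicate 3 last for both Scd1 and Adipoq.

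Of 12 adipocyte markers 10 were measured, 5 of them above the median level of all probe sets. Their mean level read 5.15, 5.17 and 4.64 in Prox1-OE and 4.95, 4.94 and 4.73 in control, lowest on replicate 3 of each group. The single markers were mixed: replicate 3 was lowest in both groups for 4 of the 10 (Adipoq, Fabp4, Lep and Retn), highest in both for 1 (Cidea) and neither for 5. Retn, the hormone resistin, read 6.29, 6.60 and 5.43 against 6.25, 6.17 and 5.82. Pnpla2, a triglyceride lipase, read 6.23, 6.27 and 6.27 against 6.35, 6.44 and 6.04, and Pparg, the regulator of fat cell formation, 4.88, 4.81 and 4.65 against 4.72, 4.87 and 4.79. Cidea, Cidec, Lep, Lipe and Ucp1 were below the median level of all probe sets. Of these, Lipe was highest on control replicate 3, at 4.08. Cidec was highest on Prox1-OE replicate 1, at 3.93, and its highest control was replicate 3, at 3.65. The part of fat tissue in the levels of Scd1, Thrsp and Me1 was not tested.

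**Figure D2:**
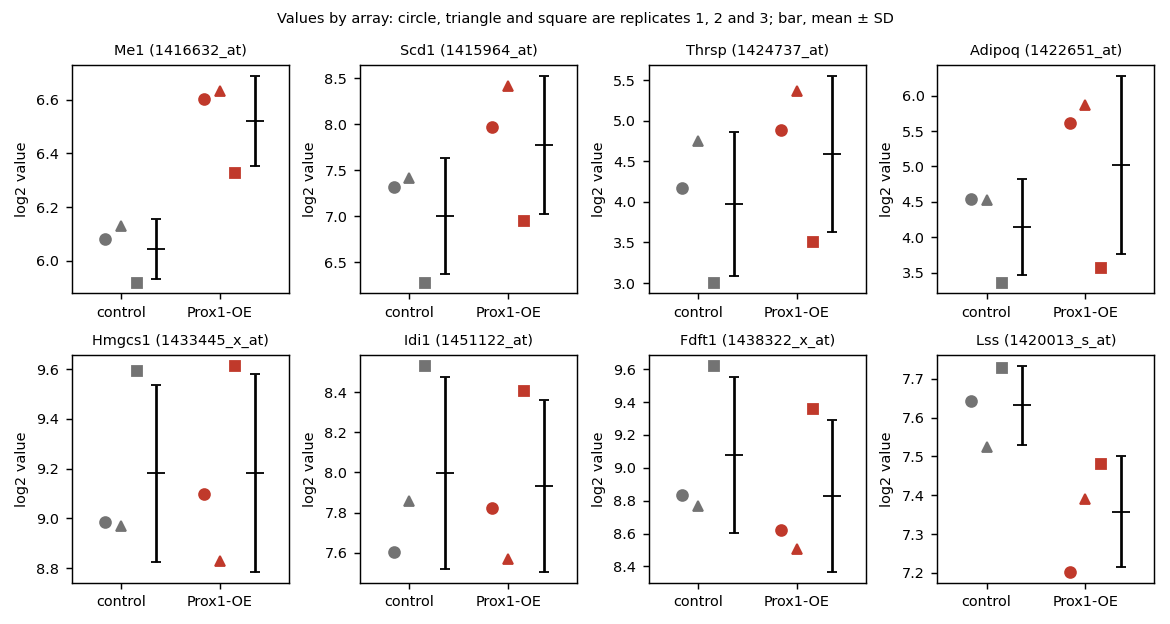
Log2 values (y axis) of 8 probe sets on each array, by group (x axis); symbols mark replicates, and the bar is the mean ± SD of 3 arrays. Square symbols, replicate 3, are lowest in both groups for Me1, Scd1, Thrsp and Adipoq and highest in both for Hmgcs1, Idi1, Fdft1 and Lss.

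The desaturases of polyunsaturated fatty acids, whose genes Fads1 and Fads2 are neighbours, were lower on all 5 of their probe sets, none past the threshold. Fads1 (delta-5 desaturase) read 6.53, 6.17 and 6.82 in Prox1-OE and 7.73, 6.71 and 6.74 in control. Replicate 1 of the controls was the high array, and the difference of -0.56 ± 0.27 (limma adjusted p = 0.812) was -0.22 without it. Fads2 (delta-6 desaturase) read 6.51, 6.29 and 6.50 against 6.93, 6.70 and 6.51 on its brightest probe set (-0.28 ± 0.13, limma adjusted p = 0.809). Its dimmest probe set read 4.79, 4.16 and 4.44 against 4.98, 4.88 and 4.99, without overlap (-0.49 ± 0.15, limma adjusted p = 0.777).

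Enzymes of the core of fatty acid synthesis differed little. Acly was negative on all 6 probe sets, of which only 3 had a level above the median of all probe sets. Its brightest read 9.64, 9.63 and 9.71 in Prox1-OE and 9.91, 9.76 and 9.82 in control, with no overlap (-0.17 ± 0.09, limma adjusted p = 0.813). Fasn read 8.24, 8.23 and 8.27 against 8.38, 8.37 and 8.11 (-0.04 ± 0.10, 95% interval -0.28 to 0.19). Acaca differed by -0.07 ± 0.12 (95% interval -0.34 to 0.21), and Srebf1, the regulator of these genes, by -0.07 ± 0.13 (95% interval -0.36 to 0.22).

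Scd2, the desaturase isoform of the same gene cluster as Scd1, did not share its pattern. It read 10.64, 10.58 and 11.28 in Prox1-OE and 11.02, 11.0 and 11.03 in control, so that Prox1-OE replicate 3 was the highest array (-0.18 ± 0.17, limma adjusted p = 0.889). Without that array the difference was -0.41, and without Prox1-OE replicate 2 it was -0.057. The elongase genes differed by -0.08 ± 0.10 for Elovl5 and 0.12 ± 0.09 for Elovl6.

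For 13 of the 16 sterol genes the difference between genotypes was no larger than the SD within at least 1 of the groups, and the exceptions were Lss, Scap and Srebf2. Idi1, the isomerase of isoprenoid units, read 7.82, 7.57 and 8.41 in Prox1-OE and 7.60, 7.86 and 8.53 in control. Replicate 3 was the high array of each group, and the genotype difference was -0.07 ± 0.27 (95% interval -0.67 to 0.54). Over the 16 genes the residual SD, the spread within groups, had a median of 0.28, beside 0.17 for the fatty acid genes and 0.14 over all 18193 genes.

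Hmgcs1, which condenses acetyl-CoA units on the way to mevalonate, had the same high arrays on all 4 of its brighter probe sets. The brightest read 9.10, 8.83 and 9.61 in Prox1-OE and 8.99, 8.97 and 9.59 in control, with a difference of -0.00056 ± 0.22 (95% interval -0.51 to 0.51). Its other brighter probe sets differed by 0.09, -0.05 and 0.14. Mvk and Mvd, the kinase and decarboxylase of the mevalonate steps, had it in 1 group each: Mvk read 4.97, 5.12 and 4.99 against 4.92, 5.12 and 5.34, and Mvd 5.45, 5.55 and 5.85 against 5.74, 6.21 and 5.70.

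Fdft1, squalene synthase, read 8.62, 8.50 and 9.36 in Prox1-OE and 8.84, 8.77 and 9.62 in control (-0.25 ± 0.27, limma adjusted p = 0.905). Replicate 3 exceeded the mean of the other 2 arrays by 0.80 in Prox1-OE and by 0.82 in control. Fdps, which makes farnesyl diphosphate, read 8.05, 8.41 and 9.01 against 8.38, 8.68 and 8.95 (-0.18 ± 0.23). Sqle, the squalene epoxidase and a rate-limiting step, read 7.05, 7.13 and 7.70 against 7.38, 7.25 and 7.63 (-0.12 ± 0.18), a difference that was -0.33 without Prox1-OE replicate 3 and -0.0041 without Prox1-OE replicate 1. In all 3 genes replicate 3 was the highest array of its group.

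Lss, which closes squalene epoxide to lanosterol, was the sterol gene with the lowest p. Its brightest probe set read 7.20, 7.39 and 7.48 in Prox1-OE and 7.64, 7.52 and 7.73 in control, with no overlap (-0.27 ± 0.11, 95% interval -0.52 to -0.03, limma adjusted p = 0.801). The next probe set read 6.97, 7.25 and 7.68 against 7.18, 7.45 and 7.53 and overlapped (-0.08 ± 0.18). No probe set of Lss passed the threshold.

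Of the enzymes after lanosterol, Cyp51, Dhcr7 and Nsdhl were highest on replicate 3 of each group, and Sc5d was not. Cyp51, the lanosterol demethylase, read 6.27, 6.44 and 7.08 in Prox1-OE and 6.51, 6.75 and 7.27 in control (-0.24 ± 0.24), and its second probe set had the lowest difference of the sterol genes (-0.44 ± 0.24, limma adjusted p = 0.817). Dhcr7, of the last step, read 6.60, 6.52 and 7.06 against 6.51, 6.78 and 7.14 (-0.08 ± 0.19), and Nsdhl, a sterol dehydrogenase, 6.94, 7.09 and 7.32 against 7.09, 7.04 and 7.64 (-0.14 ± 0.17). Sc5d, a sterol desaturase, was nearly flat, at 8.38, 8.29 and 8.49 against 8.38, 8.43 and 8.39.

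The regulators divided in the same way. Insig1, itself a target of SREBP, read 8.53, 8.45 and 9.19 in Prox1-OE and 8.63, 8.79 and 9.14 in control, highest on replicate 3 of each group (-0.13 ± 0.21). Insig2, Scap and Srebf2 varied little between arrays: their brightest probe sets differed by 0.05 ± 0.10, -0.09 ± 0.09 and 0.09 ± 0.09, and the highest SD of a group was 0.14.

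Replicate 3 was the highest Prox1-OE array for 13 of the 16 sterol genes and the highest control for 12, and it was both for 10 (62.5%), beside 13.8% of all 18193 genes and 1 of the 12 fatty acid genes. The median excess of replicate 3 over the other 2 arrays was 0.42 in Prox1-OE and 0.37 in control. This contrast was chosen after the values were seen and is a description. Of 8 other sterol genes that were measured, 4 also had replicate 3 highest in both groups. One was Msmo1, the methylsterol oxidase, at 8.04, 7.79 and 8.52 against 8.03, 7.97 and 8.72. The labels do not say what, if anything, the arrays with a shared number have in common.

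**Figure D3:**
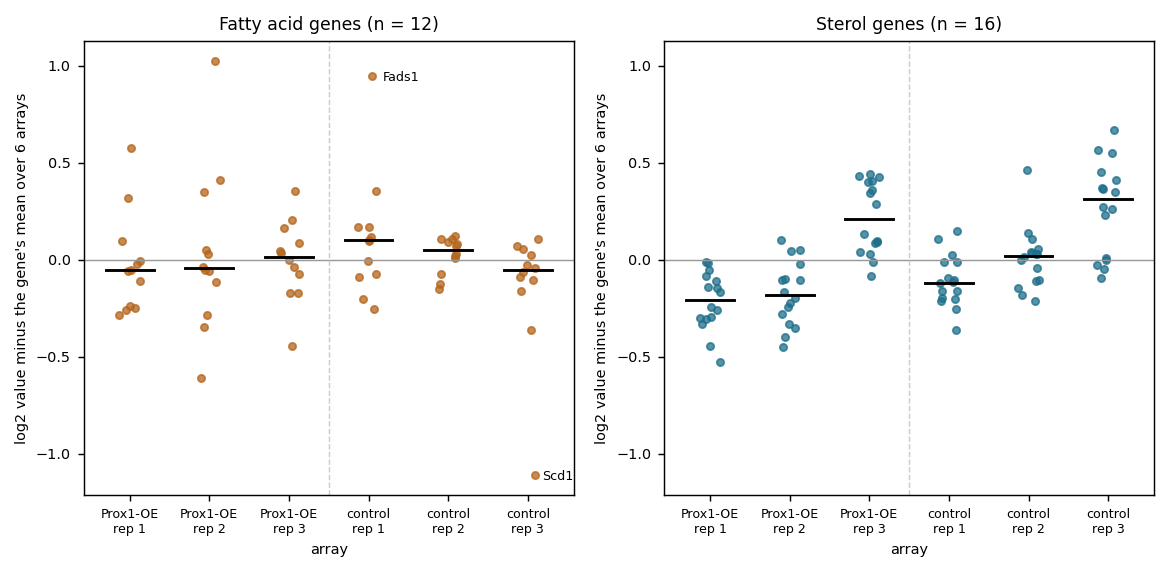
Log2 value of each gene's brightest probe set minus that gene's mean over the 6 arrays (y axis), by array (x axis), for 12 fatty acid genes (left) and 16 sterol genes (right); points are genes and bars their medians. The sterol medians are 0.21 and 0.31 on replicate 3 of Prox1-OE and control and between -0.21 and 0.02 on the other 4 arrays, while the fatty acid medians stay between -0.06 and 0.10.

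Other measures were set beside this pattern. A measure of RNA quality, the 3' minus 5' difference of control probe sets, read 0.92, 0.93 and 0.95 in Prox1-OE and 0.99, 0.91 and 0.94 in control, with control replicate 1 the highest. The acinar markers' mean level was 13.12, 13.07 and 13.16 against 13.24, 13.16 and 13.17. Blood endothelial markers, all 8 measured, had a mean level of 6.77, 6.56 and 6.58 against 6.79, 6.64 and 6.12, low on control replicate 3 alone. Of the adipocyte markers, 4 of 10 were lowest on replicate 3 of both groups, as given above. The array weights estimated by limma, which fall as an array departs from its group, were 0.88, 1.11 and 1.06 in Prox1-OE and 1.06, 1.20 and 0.76 in control, lowest for control replicate 3. With these weights the sterol median over probe sets was -0.054 in place of -0.084. The part of cell composition in the sterol pattern was not tested.

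Beyond the 28 genes, 7 lists of the wider pathway held 105 genes, of which 91 were measured. None passed by limma, and 8 had an unadjusted p under 0.05 on the brightest probe set (6.72% of all genes did), 5 of them lower and 3 higher. Among 19 other genes of fatty acid synthesis and elongation, with a median of -0.02, 3 were among the 8. Acacb, the acetyl-CoA carboxylase linked to control of oxidation, read 6.83, 6.99 and 7.39 in Prox1-OE and 7.54, 7.71 and 7.32 in control (-0.45 ± 0.16, limma adjusted p = 0.777). Cbr4, of mitochondrial fatty acid synthesis, differed by -0.32 ± 0.13 without overlap, and Tecr, the last enzyme of the elongation cycle, by -0.32 ± 0.14 (limma adjusted p = 0.801 and 0.809).

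In the list of other SREBP and LXR control genes, 13 measured with a median of 0.05, Mlxipl stood first. It encodes ChREBP, which switches on lipogenic genes in response to glucose. Mlxipl read 6.45, 6.48 and 6.60 in Prox1-OE and 7.28, 6.89 and 6.92 in control, every Prox1-OE array below every control (-0.52 ± 0.12, limma adjusted p = 0.772). Beta cell markers, 8 of 10 measured, were all negative, with a median of -0.56 and a mean level of 7.13, 6.97 and 6.84 against 7.92, 7.64 and 7.39. The part of beta cell RNA in the level of Mlxipl was not tested.

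Of 8 other sterol synthesis genes 6 were negative (median -0.12). Pmvk, the phosphomevalonate kinase, read 5.72, 5.59 and 5.52 in Prox1-OE and 5.89, 5.81 and 5.92 in control, without overlap (-0.26 ± 0.09, limma adjusted p = 0.777). Genes of sterol uptake, transport and efflux had 11 of 15 positive (median 0.03). Apoe, the lipoprotein of sterol transport, was at 8.94, 8.27 and 8.63 against 8.47, 8.0 and 8.02 (0.45 ± 0.19), and Lipa, the lysosomal acid lipase, differed by 0.28 ± 0.12 (limma adjusted p = 0.801 for both). Macrophages express both, and 9 of 10 macrophage markers were positive, with a median of 0.60 and a mean level of 7.90, 7.23 and 7.26 against 7.01, 6.81 and 6.65. The part of macrophages in Apoe and Lipa was not tested.

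Genes of fatty acid activation and glycerolipid synthesis, 15 measured, had a median of -0.01. Dgat2, which makes triglyceride, read 5.96, 6.37 and 5.64 against 5.44, 5.55 and 5.60 and did not overlap (0.46 ± 0.17, limma adjusted p = 0.786). Fatty acid oxidation genes, 14 measured, had 10 negative, a median of -0.08 and none with an unadjusted p under 0.05, and the 7 NADPH genes had a median of -0.09 with none. Hadha and Hadh, of beta-oxidation, differed by -0.17 ± 0.09 and -0.19 ± 0.11.

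**Figure D4:**
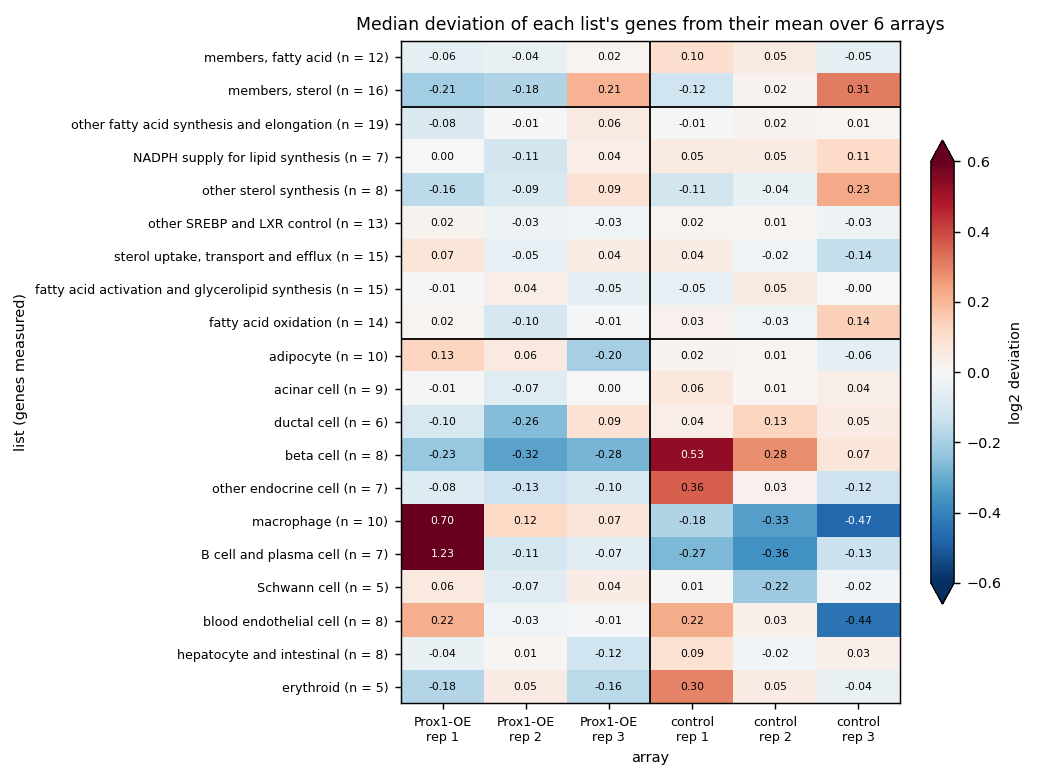
Median log2 deviation of each list's genes (rows, brightest probe sets; n, genes measured) from their own mean over the 6 arrays, by array (columns); red is above and blue below that mean, and the colour scale ends at 0.6. Member and other sterol synthesis genes are highest on control replicate 3 and next highest on Prox1-OE replicate 3, the beta cell list is below 0 on all Prox1-OE arrays, and the B cell and macrophage lists are highest on Prox1-OE replicate 1.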

How the data were processed

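The authors deposited log2 probe set summaries, with 1 array for each sample, made from 100 ng of total RNA per the labels' protocols. Per the submitters' processing notes, the tools were RMA, which corrects background, normalizes quantiles and compresses differences of dim probe sets, and Partek 6.5, settings not given. Of 45101 probe sets, 64 controls were left out. Names came from the platform annotation, and all 67 member probe sets matched a RefSeq gene of GRCm38.p6. The assembly behind the array design is not given in the sources used here.

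Groups were compared in limma 3.58.1 (R 4.3.3; lmFit, eBayes) across all probe sets, two-sided, with Benjamini-Hochberg adjustment, tested on simulated data. Samples are not stated to be separate animals, so p-values measure the spread between these samples. The members and lists were chosen with earlier results of these data known. Named were all members and, of each pathway list, up to 3 genes with the smallest p; Msmo1, Me2, Me3 and marker genes illustrate. Alternatives covered probe set choice, filtering, normalization, variance model, array weights, replicate block, threshold and left-out arrays. The number of arrays limits precision.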

Additional observations from a re-analysis of the deposited data

How the results depend on the processing

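No member passed an adjusted p of 0.05 under any setting, nor at a threshold of 0.1, and the lowest adjusted p of a member under any was 0.376. The count over all probe sets, 5, was 2 with the replicate number as a block and 0 to 8 with arrays left out. The fatty acid median ran from -0.13 without both replicate 3 arrays, a setting chosen after the data were seen, to 0.0023 without Prox1-OE replicate 1, and the sterol median from -0.20 to 0.01. The replicate block gave 12 of the 67 member probe sets an unadjusted p under 0.05, in place of 3, beside 6.95% of all probe sets in that fit, led by Scd1 (0.77 ± 0.11 SE, limma adjusted p = 0.376). Deviations of arrays with the same number correlated at 0.06, 0.17 and 0.10, and every array correlated best with its own number. Low correlations over all probe sets cannot show that the arrays were unpaired. The labels do not state pairs, so the numbers were not taken as pairs. Of the 28 genes, 13 changed sign under a setting. Hmgcs1 was at 0.089 as the mean of its probe sets, 0.018 with median centring and 0.051 with array weights, and Sc5d at 0.0012 with median centring. With arrays left out, the differences ran from -0.24 to 0.042 for Srebf1, -0.14 to 0.0069 for Fasn, -0.15 to 0.035 for Acaca, -0.050 to 0.26 for Thrsp, -0.22 to 0.20 for Hmgcs1, -0.30 to 0.20 for Idi1, -0.44 to 0.040 for Fdps, -0.51 to 0.023 for Fdft1, -0.25 to 0.078 for Dhcr7, -0.36 to 0.018 for Insig1, -0.20 to 0.028 for Mvk, -0.25 to 0.050 for Nsdhl and -0.073 to 0.032 for Sc5d. Without a change of sign they ran from -0.41 to -0.057 for Scd2, -0.33 to -0.0041 for Sqle, -0.48 to -0.029 for Cyp51, -0.47 to -0.11 for Mvd, -0.41 to -0.17 for Fads2 and -0.87 to -0.22 for Fads1, and of the 28 genes Acly, Me1 and Lss alone stayed within 1.5 times their value. The causes were not tested. Dim probe sets limit what can be seen.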
